A study of Mus musculus with 384 samples.

Results

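Galectins are small lectins that bind beta-galactoside sugars on glycoproteins and glycolipids. Lgals1 (galectin-1), Lgals3 (galectin-3), Lgals8 (galectin-8) and Lgals9 (galectin-9) are described here in single granulocyte/macrophage progenitors (GMPs), a marrow population upstream of neutrophils and monocytes. These 4 genes, of 46078 gene rows in the tables, were chosen by name with earlier results of the same cells known: they were selected on their level, their share of cells and their relation to Irf8, Gfi1 and stem genes, BCR-ABL sets against the Control set. Their values in that contrast and those relations are therefore given as a description. All 4 were found and all 4 passed the filter on low counts.

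Galectins are made in the cytosol and leave the cell without a signal peptide. Galectin-1 has 1 sugar-binding domain and pairs with itself, galectin-3 has 1 such domain behind a repetitive tail and forms larger assemblies, and galectin-8 and galectin-9 each join a pair of different domains with a linker. Outside the cell they crosslink surface glycoproteins, and inside it galectin-3 and galectin-8 gather on damaged endosomes and lysosomes whose inner sugars become exposed. In blood-forming tissue, galectin-3 is known as an abundant protein of monocytes and macrophages, and galectin-9 is known as an interferon-induced ligand in immune regulation.

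The 3 BCR-ABL sets (replicates 1, 2 and 4) came from mice labelled with BCR/ABL induction, and the 1 Control set from mice labelled control. The strain was C57Bl/6 and the model Scl-tTA::TRE-BCR/ABL, in which a Scl-driven transactivator switches on BCR-ABL, the fusion oncogene of chronic myeloid leukaemia, once doxycycline is withdrawn. Animals were bred on 20 mg/L doxycycline in their water, it was withdrawn at 5 weeks of age, and marrow was taken 5 to 6 weeks later. The labels do not give the genotype of the control mice, whether sets are separate animals, or whether control mice also lost doxycycline. Each sample is 1 well of a plate, sorted for 1 GMP (lineage-negative, c-Kit+, Sca-1-, CD34+, FcγR+) and read by SMART-seq2, a full-length cDNA method without molecular identifiers.

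Each set had 96 wells. BCR-ABL replicates 1, 2 and 4 gave 76, 61 and 92 cells that passed the filter and the Control set 94, together 323 of 384, and summed gene reads ran from 121378632 to 140995697 per set. Median gene reads per kept cell were 1649313, 2084608 and 1385349 across BCR-ABL sets and 1200640 in the Control set. Of the gate and GMP markers, Kit, Cd34, Fcgr3, Fcgr2b, Mpo and Elane were read in all 4 sets and Ly6a, which encodes Sca-1, stood at 1.63 to 3.46 CPM across BCR-ABL sets and 1.29 in the Control set (CPM, the reads of a gene per 1000000 gene reads). Cd34, a gate marker, stood at 146, 180 and 158 CPM across BCR-ABL sets and 440 CPM in the Control set (log2 fold change -1.43, SE 0.16, edgeR adjusted p = 0.594, and called lower by DESeq2), so it was lower in the same sets as Lgals1, and its part was not tested. The sets were not alike. Xist, read only from an inactive X chromosome, stood at 324, 0 and 0.16 CPM across BCR-ABL replicates 1, 2 and 4 and at 461 CPM in the Control set, and the summed level of 5 eosinophil markers was 1257 CPM in BCR-ABL replicate 4 against 0.57 and 6.26 CPM in the other BCR-ABL sets and 3.77 CPM in the Control set. For the 4 members, fold changes without replicate 4 are given beside those with it. Fold changes of all other genes include replicate 4.

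Promoter windows of 300 bases, from 250 before to 50 after the annotated start, were in the RefSeq table (GRCm38.p6) for 3 members, Lgals3, Lgals8 and Lgals9. The windows of Lgals3 and Lgals9 are shown because the first gene was read more often in cells with Irf8, a transcription factor of the interferon regulatory family, and the second was not. Capitals mark every match, on either strand, to GGAA (the core bound by ETS factors such as PU.1), GGAA followed after any 2 bases by GAAA (an ETS-IRF composite) and GAAA followed after any 2 bases by GAAA (an interferon-response core). The RefSeq starts used here lie inside the wider GENCODE gene spans given with each gene for Lgals3 and Lgals8. The Lgals3 window lies at chr14:47373610-47373909 on the plus strand and the Lgals9 window at chr11:78984875-78985174 on the minus strand.
Lgals3: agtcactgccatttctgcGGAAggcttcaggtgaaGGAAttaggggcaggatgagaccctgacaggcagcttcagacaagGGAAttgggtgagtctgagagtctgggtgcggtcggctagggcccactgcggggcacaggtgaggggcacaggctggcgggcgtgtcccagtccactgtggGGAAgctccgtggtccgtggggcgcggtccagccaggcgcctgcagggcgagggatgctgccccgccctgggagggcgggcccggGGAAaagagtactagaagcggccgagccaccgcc
Lgals9: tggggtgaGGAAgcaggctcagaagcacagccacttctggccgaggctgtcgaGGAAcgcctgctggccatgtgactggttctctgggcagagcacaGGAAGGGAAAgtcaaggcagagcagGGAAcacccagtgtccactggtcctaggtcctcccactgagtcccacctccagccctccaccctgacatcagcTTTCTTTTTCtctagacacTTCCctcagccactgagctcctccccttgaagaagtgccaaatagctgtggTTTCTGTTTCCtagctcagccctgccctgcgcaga

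The Lgals9 window held 1 match to the ETS-IRF composite, starting 153 bases before the annotated start, and 2 matches to the interferon-response core, starting 55 bases before and 16 bases into the transcript. The Lgals3 and Lgals8 windows held no match to either. Among 32851 promoter windows of the same length, 2.72% held the composite and 3.44% held the interferon-response core. The short GGAA core matched 5 times in Lgals3, 2 times in Lgals8 and 7 times in Lgals9, and 96% of all windows held it. The composite match and one of the interferon-response matches in Lgals9 overlap GGAA matches, so these are not separate counts. AATCA, the core bound by the repressor Gfi1, matched 1 time in Lgals8 and not in the other 2 windows (37% of all windows). GGGCGG matched 2 times in Lgals3 (35.7% of all windows), and TATAAA in none of the 3 (13.6% of all windows).

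Galectin-1 was the most abundant member per length of exon, and by reads it led in the Control set and in BCR-ABL replicates 1 and 2. Lgals1 (ENSMUSG00000068220, mm10 chromosome 15, 78926725 to 78930465, plus strand) stood at 386, 457 and 251 CPM across BCR-ABL replicates 1, 2 and 4, against 1272 CPM in the Control set. The 3 BCR-ABL sets lay below the Control set and did not overlap it. The mean was 365 ± 104.8 CPM in BCR-ABL sets (SD, n = 3) and 1272 CPM in the 1 Control set, a log2 fold change of -1.78 (SE 0.34) in the fit across all genes, and of -1.56 without replicate 4. The Control set is a single set; whether a value goes with the condition or with that set cannot be told apart.

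The lower Lgals1 level was seen across the cells of a set, not in a few of them. The median kept cell held 316, 398 and 211 CPM across BCR-ABL sets and 1259 CPM in the Control set, where the lowest of 94 cells still held 304 CPM. Of 229 BCR-ABL cells, 119 lay below that lowest Control cell (33 of 76, 20 of 61 and 66 of 92 by set), and 4 lay above the Control median. Cells were also less alike: the coefficient of variation of CPM over cells was 0.82, 1.06 and 0.99 across BCR-ABL sets and 0.38 in the Control set. To compare shares at equal depth, each cell was thinned to 674952 gene reads, which left 65, 54 and 81 BCR-ABL cells and 90 Control cells. At least 10 Lgals1 reads were found in 65 of 65, 54 of 54 and 80 of 81 thinned BCR-ABL cells and in 90 of 90 Control cells.

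**Figure D1:**
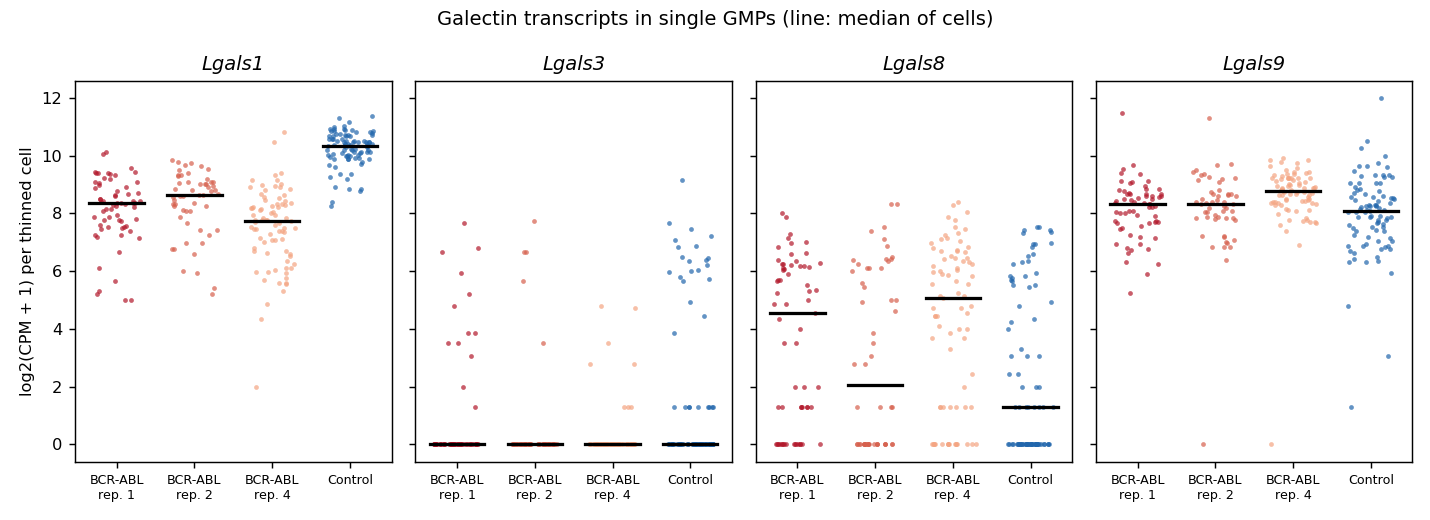
Level of each galectin in each thinned cell, as log2(CPM + 1) on the vertical axis, by set, with the median of cells as a black line. Lgals1 cells of the 3 BCR-ABL sets lie mostly below the Control cells, Lgals3 and Lgals8 are at 0 in many cells of every set, and Lgals9 cells overlap between all 4 sets.

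Galectin-9 was the other member read in nearly every cell. Lgals9 (ENSMUSG00000001123, chromosome 11, 78962974 to 78984946, minus strand) stood at 356, 387 and 478 CPM across BCR-ABL sets, against 366 CPM in the Control set. The Control value lay inside the range of the BCR-ABL sets on this scale, and just below all 3 of them after the TMM scaling of the fit. The means were 407 ± 63.2 CPM in BCR-ABL sets (SD, n = 3) and 366 CPM in the Control set, a log2 fold change of 0.17 (SE 0.19), which was 0.05 without replicate 4. The median cell held 309, 291 and 433 CPM across BCR-ABL sets and 288 CPM in the Control set. At least 10 reads were found in 65 of 65, 53 of 54 and 80 of 81 thinned BCR-ABL cells and in 88 of 90 Control cells. Single cells reached 2885, 2557 and 991 CPM across BCR-ABL sets and 4060 CPM in the Control set.

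A ratio of reads of both genes within a set does not depend on how sets are scaled to each other. Lgals1 had 1.08, 1.18 and 0.526 reads per Lgals9 read across BCR-ABL sets, against 3.47 in the Control set. All 3 BCR-ABL ratios were below the Control ratio.

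Galectin-8 was read in some cells only. Lgals8 (ENSMUSG00000057554, chromosome 13, 12439415 to 12464944, minus strand) stood at 45.7, 40.7 and 60.7 CPM across BCR-ABL sets, against 28.5 CPM in the Control set. All 3 BCR-ABL sets lay above the Control set. The means were 49 ± 10.4 CPM in BCR-ABL sets (SD, n = 3) and 28.5 CPM in the Control set, a log2 fold change of 0.80 (SE 0.28), which was 0.63 without replicate 4. At least 10 reads were found in 35 of 65 (53.8%, exact Clopper-Pearson 95% interval 41 to 66.3), 22 of 54 (40.7%, 27.6 to 55) and 51 of 81 (63%, 51.5 to 73.4) thinned BCR-ABL cells and in 29 of 90 Control cells (32.2%, 22.8 to 42.9). These intervals cover counting error only. In kept cells with at least 10 reads the median level was 69, 64.7 and 77.9 CPM across BCR-ABL sets and 69.5 CPM in the Control set, and the Control value lay inside the BCR-ABL range. The interval of the share in replicate 4 lay above that of the Control set, and those of replicates 1 and 2 overlapped it.

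Exons of Lgals8 share 155 of 3688 annotated exon bases with Heatr1, a ribosome biogenesis gene on the opposite strand. The strand setting of the counting is not given in the sources used here, so reads from these bases may belong to either gene. Heatr1 itself stood at 60.6, 73.3 and 57 CPM across BCR-ABL sets and 65.3 CPM in the Control set, so the Control value lay inside the BCR-ABL range. Exons of the other 3 members overlap no other annotated gene.

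Galectin-3 was the rarest member by cells. Lgals3 (ENSMUSG00000050335, chromosome 14, 47367751 to 47386160, plus strand) stood at 11.4, 11.8 and 1.0 CPM across BCR-ABL sets, against 28.8 CPM in the Control set. All 3 BCR-ABL sets lay below the Control set, with replicate 4 far below the other 2. The means were 8.07 ± 6.12 CPM in BCR-ABL sets (SD, n = 3) and 28.8 CPM in the Control set, a log2 fold change of -1.80 (SE 1.22), which was -1.28 without replicate 4. These sums rest on few cells: 1 cell held 22.1%, 41.4% and 25.5% of all Lgals3 reads across BCR-ABL sets and 28.9% in the Control set. At least 10 reads were found in 6 of 65 (9.23%, 3.46 to 19), 4 of 54 (7.41%, 2.06 to 17.9) and 2 of 81 (2.47%, 0.30 to 8.64) thinned BCR-ABL cells and in 20 of 90 Control cells (22.2%, 14.1 to 32.2), with the same kind of interval. The interval of replicate 4 lay below that of the Control set, and those of replicates 1 and 2 overlapped it. In kept cells with at least 10 reads the median was 21.6, 92.2 and 10.7 CPM across BCR-ABL sets and 82.4 CPM in the Control set. Over the 61 wells that failed the filter, Lgals3 had 2 reads in all, 1 in each of BCR-ABL replicates 1 and 4.

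**Figure D2:**
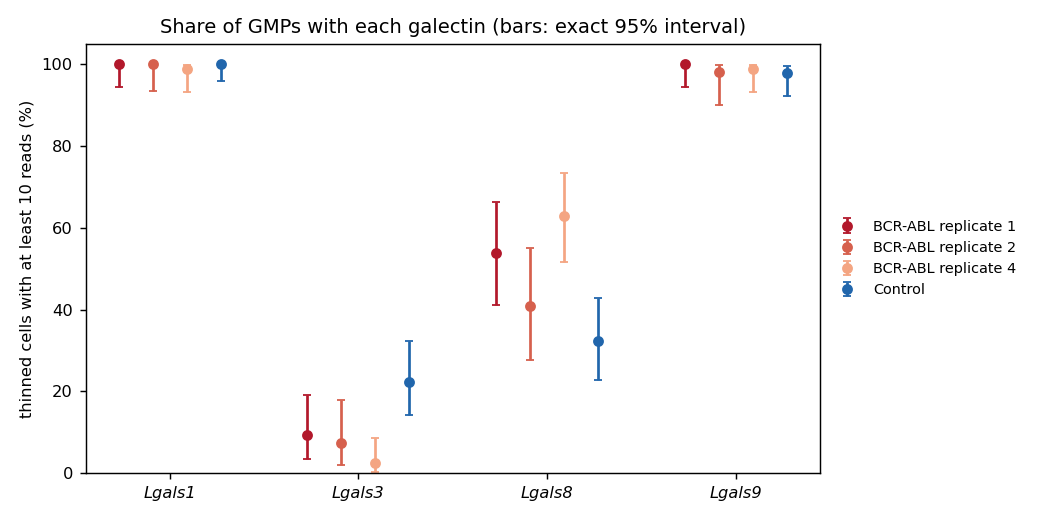
Percent of thinned cells with at least 10 reads of each galectin, by set, with exact 95% intervals as bars. Lgals1 and Lgals9 are near 100% in every set, Lgals3 is at 2.47% to 9.23% in BCR-ABL sets and 22.2% in the Control set, and Lgals8 is at 40.7% to 63% in BCR-ABL sets and 32.2% in the Control set.

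Per kilobase of exon, a scale on which genes can be ordered, Lgals1 led with 404 ± 116 CPM per kb in BCR-ABL sets (SD, n = 3) and 1408 in the Control set. Lgals9 followed with 190 ± 29.6 CPM per kb in BCR-ABL sets and 171 in the Control set. Lgals8 stood at 13.3 ± 2.82 CPM per kb in BCR-ABL sets and 7.72 in the Control set, and Lgals3 at 4.34 ± 3.30 in BCR-ABL sets and 15.5 in the Control set. Lgals8 was above Lgals3 in each BCR-ABL set and below it in the Control set. Lgals1 and Lgals9 came closest in BCR-ABL replicate 4, at 278 and 224 CPM per kb. Most cells held 2 or 3 members with at least 10 reads: 61 of 65, 52 of 54 and 79 of 81 thinned BCR-ABL cells and 88 of 90 Control cells.

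Against the whole table, all 3 BCR-ABL sets lay below the Control set for 2 of the 4 members and for 26.6% of 20324 genes tested, and above it for the other 2 members and for 24.2% of genes tested, on the TMM-scaled values of the fit. Lgals9 counts as above on that scale only, since plain CPM puts replicate 1 below the Control set. In edgeR's quasi-likelihood test of 3 BCR-ABL sums against 1 Control sum, 0% of genes, and so no member, passed an adjusted p of 0.05. At an unadjusted p under 0.05 edgeR gave 1459 genes (7.18%), among them 2 members, Lgals1 lower and Lgals8 higher. DESeq2 on the same sums called 557 genes, 163 of them lower (0.908% of 17959 genes it tested), among them Lgals1 and no other member. Nothing is read from these counts, since the contrast chose the members. The median log2 fold change was 0.05 over all genes tested and -0.80 over the 4 members.

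The family holds further genes that were not chosen. Lgals4, an epithelial galectin with a pair of domains, stood at 15.6, 17.3 and 23.1 CPM across BCR-ABL sets, against 9.53 CPM in the Control set. All 3 BCR-ABL sets lay above the Control set, with a log2 fold change of 0.98 (SE 0.33, edgeR adjusted p = 0.669). Its share of thinned cells with at least 10 reads was 35.4%, 31.5% and 51.9% across BCR-ABL sets and 21.1% in the Control set. Lgalsl, a galectin-related gene whose product lacks the sugar-binding residues, stood at 9.63, 16.3 and 7.84 CPM across BCR-ABL sets and 10.2 CPM in the Control set, inside their range. Lgals3bp, a secreted glycoprotein bound by galectin-3, stood at 121, 159 and 150 CPM across BCR-ABL sets and 144 CPM in the Control set, also inside their range (log2 fold change 0.01, SE 0.20, edgeR adjusted p = 0.998). Lgals2, Lgals12 and Grifin had 0 reads in all kept cells, which allows up to 3 reads per set by counting error, and Lgals7 had 4 reads in 1 cell of BCR-ABL replicate 4.

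Lgals1 was set against 2 fate regulators in each cell. Irf8 is known to drive the monocyte branch and Gfi1 the neutrophil branch of GMPs, and relations are given as Spearman's correlation over the thinned cells of 1 set at a time (65, 54 and 81 BCR-ABL cells and 90 Control cells). Cells of a set are not replicates, so each correlation is a description with no p. The correlation of Lgals1 with Irf8 was 0.43, 0.30 and 0.11 across BCR-ABL sets and 0.395 in the Control set, positive in 4 of 4 sets. The correlation of Lgals1 with Gfi1 was -0.52, -0.43 and -0.21 across BCR-ABL sets and -0.31 in the Control set, negative in 4 of 4 sets. Over 10769 genes compared with each regulator, the mean correlation over the sets had a middle 90% of -0.14 to 0.21 with Irf8, where Lgals1 had 0.31, and of -0.22 to 0.15 with Gfi1, where Lgals1 had -0.37. Of these genes, 19.9% were positive with Irf8 in all 4 sets and 16.7% were negative with Gfi1 in all 4 sets. Irf8 itself stood at 259, 421 and 62.4 CPM across BCR-ABL sets and 990 CPM in the Control set, and Gfi1 at 103, 83.5 and 160 CPM across BCR-ABL sets and 41.5 CPM in the Control set.

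Lgals3 had the same signs in all 4 sets, with values near 0 in several. Its correlation with Irf8 was 0.51, 0.07 and 0.03 across BCR-ABL sets and 0.25 in the Control set, and with Gfi1 -0.27, -0.23 and -0.15 across BCR-ABL sets and -0.095 in the Control set. Its mean over sets was 0.21 with Irf8, at the upper end of the middle 90% of genes, and -0.185 with Gfi1, inside that range. Of cells with at least 10 Lgals3 reads, 6 of 6, 3 of 4 and 1 of 2 BCR-ABL cells and 19 of 20 Control cells also held at least 10 Irf8 reads. Over all thinned cells, 27 of 65, 34 of 54 and 16 of 81 BCR-ABL cells and 78 of 90 Control cells did so. The median Control cell with Lgals3 held 1563 CPM of Irf8 and 7209 CPM of Elane, the neutrophil elastase gene, and the median Control cell without it held 744 CPM of Irf8 and 14388 CPM of Elane. The correlation between Lgals1 and Lgals3 was 0.40, 0.26 and 0.09 across BCR-ABL sets and 0.28 in the Control set.

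Lgals8 and Lgals9 had other signs. The correlation with Irf8 was -0.095, -0.09 and -0.065 across BCR-ABL sets and -0.15 in the Control set for Lgals8. For Lgals9 it was -0.07, -0.23 and -0.07 across BCR-ABL sets and -0.24 in the Control set. Both genes were thus negative with Irf8 in every set, as were 7.75% of all genes compared. The mean of Lgals9 over sets was -0.15, just below the middle range of genes given above for Irf8, -0.14 to 0.21. That of Lgals8 was -0.10, inside this range, and on unthinned cells its sign varied between sets. With Gfi1 the sign of both genes varied between sets, from -0.10 to 0.18 for Lgals8 and from -0.19 to 0.11 for Lgals9.

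**Figure D3:**
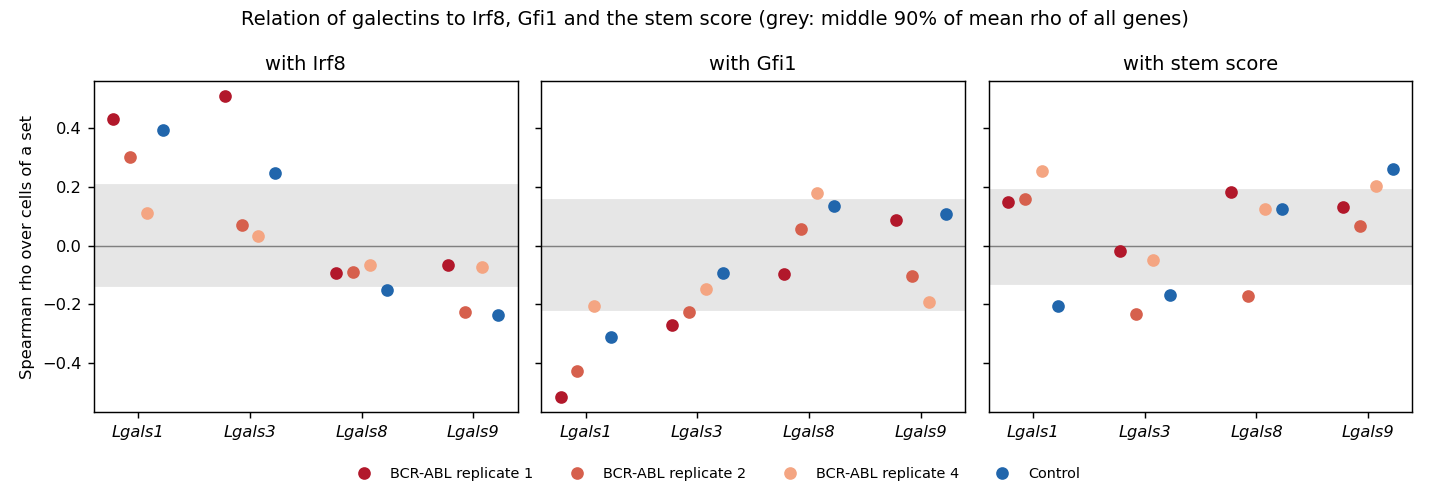
Spearman's correlation over the cells of each set between each galectin and Irf8, Gfi1 or the stem score, with the middle 90% of mean correlation of all genes compared shaded grey. Lgals1 is positive with Irf8 and negative with Gfi1 in all 4 sets, and Lgals9 is positive with the stem score in all 4 sets.

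The stem score was the mean log2(CPM + 1) of 15 stem and progenitor genes. Lgals9 was positive with it in 4 of 4 sets, at 0.13, 0.07 and 0.20 across BCR-ABL sets and 0.26 in the Control set, as were 19.5% of all genes compared. Its mean over sets was 0.17, inside the middle 90% of the means of all genes, -0.13 to 0.19. Correlations of Lgals9 with single stem genes differed in sign. With Gata2, a regulator of early progenitors, mast cells and basophils, Lgals9 had 0.21, 0.13 and 0.21 across BCR-ABL sets and 0.32 in the Control set. With Procr, another gene of the score, it had -0.255, -0.18 and 0.01 across BCR-ABL sets and -0.02 in the Control set. Lgals1 had a positive correlation with the stem score across BCR-ABL sets (0.15, 0.16 and 0.26) and a negative one in the Control set (-0.205), and the difference was not tested. Single stem genes pointed both ways for Lgals1. With Cd34, a surface protein of progenitors, it had 0.23, 0.265 and 0.24 across BCR-ABL sets and 0.085 in the Control set, and with Sox4, a transcription factor, 0.11, 0.30 and 0.19 across BCR-ABL sets and 0.09 in the Control set. With Kit, the stem cell factor receptor, Lgals1 had -0.47, -0.325 and -0.03 across BCR-ABL sets and -0.30 in the Control set, and Lgals3 had -0.49, -0.385 and -0.19 across BCR-ABL sets and -0.28 in the Control set. Lgals3 was negative with the stem score in 4 of 4 sets (-0.23 to -0.02), as were 7.13% of all genes compared. Its mean over sets was -0.12, inside the middle 90% of genes, and on unthinned cells the value in replicate 1 was 0.11. Lgals8 varied in sign with the stem score (-0.17 to 0.18).

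Depth and the cell cycle moved with some of these values, and their part was not tested. The correlation of Lgals1 with the gene reads of a cell before thinning was 0.36, 0.41 and -0.002 across BCR-ABL sets and -0.13 in the Control set. Lgals9 was negative with Mki67, a marker of cycling cells, in 4 of 4 sets (-0.15, -0.17 and -0.27 across BCR-ABL sets and -0.25 in the Control set), where Pearson's r was 0.06 in replicate 2. With a score of G2/M genes Lgals9 varied in sign, at -0.10, 0.01 and -0.195 across BCR-ABL sets and -0.13 in the Control set. With a score of S phase genes Lgals9 was positive in 4 of 4 sets (0.23, 0.02 and 0.05 across BCR-ABL sets and 0.11 in the Control set), where Pearson's r was -0.04 in replicate 4. Lgals1 with the S phase score was also positive in 4 of 4 sets, at 0.30, 0.045 and 0.31 across BCR-ABL sets and 0.09 in the Control set. The share of all genes with 1 sign in all 4 sets was not computed for Mki67 or these scores.

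Cells were then split at 10 reads of Irf8 and of Gfi1. Cells with Irf8 only numbered 14, 15 and 1 across BCR-ABL sets and 50 in the Control set. Cells with Gfi1 only numbered 35, 17 and 60 across BCR-ABL sets and 8 in the Control set, and cells with both 13, 19 and 15 across BCR-ABL sets and 28 in the Control set. Between 5 and 29 reads, near the limit, lay 5, 6 and 5 BCR-ABL cells and 9 Control cells for Irf8 and 6, 8 and 6 BCR-ABL cells and 8 Control cells for Gfi1. Cells with neither numbered 3, 3 and 5 across BCR-ABL sets and 4 in the Control set. A class with under 5 cells in a set was left out of the comparisons of classes. The Gfi1-only class of the Control set depends on the limit: at 5 reads it held 2 cells.

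Lgals1 was lower in BCR-ABL cells inside each class. Mean levels in Irf8-only cells were 550 and 510 CPM across BCR-ABL replicates 1 and 2 and 1449 CPM in the Control set. In cells with both regulators they were 448, 406 and 393 CPM across BCR-ABL sets and 1246 CPM in the Control set. In Gfi1-only cells they were 241, 327 and 234 CPM across BCR-ABL sets and 693 CPM in the Control set, the last from 8 cells. On the log2(mean CPM + 1) scale, the average difference from the Control set was -1.45 ± 0.08 (SD, n = 2 sets) in Irf8-only cells, -1.58 ± 0.10 (SD, n = 3) in cells with both and -1.39 ± 0.27 (SD, n = 3) in Gfi1-only cells. The whole-set log2 fold change of the fit was -1.78 on unthinned sums, -1.90 on thinned sums and -1.56 without replicate 4. The fit uses TMM-scaled sums and the class values use mean CPM of thinned cells, so the 2 kinds of value are not directly comparable. Within a set, Irf8-only cells stood above Gfi1-only cells by log2 ratios of 1.19 and 0.64 across BCR-ABL replicates 1 and 2, against 1.06 in the Control set.

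Lgals8 gave another picture. In Irf8-only cells it stood at 36.6 and 24.1 CPM across BCR-ABL replicates 1 and 2 and 18.1 CPM in the Control set. In cells with both regulators it stood at 36.4, 31.3 and 38.1 CPM across BCR-ABL sets and 36.2 CPM in the Control set, which lay inside their range. In Gfi1-only cells it stood at 45, 68.9 and 67.1 CPM across BCR-ABL sets and 49.3 CPM in the Control set, also inside their range. The mean log2 difference was 0.69 ± 0.41 (SD, n = 2) in Irf8-only cells, -0.04 ± 0.15 (SD, n = 3) in cells with both and 0.26 ± 0.34 (SD, n = 3) in Gfi1-only cells. For whole sets the fit, on its own TMM scale, gave 0.80 on unthinned sums and 0.77 on thinned sums. The value in cells with both changed sign under each alternative, to 0.20 at a limit of 5 reads, 0.19 at 30 reads and 0.46 with medians.

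For Lgals9 the class means overlapped between groups. In the 3 classes with a regulator they ran from 278 to 451 CPM over BCR-ABL sets and from 287 to 357 CPM over the classes of the Control set, and the mean log2 differences were 0.12 ± 0.22 (SD, n = 2), -0.01 ± 0.30 and 0.29 ± 0.17 (SD, n = 3 each) in the same order of classes. Cells with neither regulator numbered 3, 3 and 5 across BCR-ABL sets and 4 in the Control set, so their Lgals9 levels are only described. Their means were 304, 1193 and 524 CPM across BCR-ABL sets and 1678 CPM in the Control set. Their medians were 123, 682 and 362 CPM across BCR-ABL sets and 1150 CPM in the Control set. The highest of these Control cells held 4036 CPM, and at a class limit of 5 reads the Control mean was 891 CPM. For Lgals3, levels in Irf8-only cells were 17.7 and 24 CPM across BCR-ABL replicates 1 and 2 and 39.2 CPM in the Control set. In cells with both regulators they were 25.8, 0 and 2.07 CPM across BCR-ABL sets and 7.83 CPM in the Control set, which replicate 1 exceeded and the other 2 did not (mean log2 difference -1.02 ± 2.41, SD, n = 3). In Gfi1-only cells they were 0.30, 6.45 and 0.79 CPM across BCR-ABL sets and 0.56 CPM in the Control set, where 0 of 35, 1 of 17 and 1 of 60 BCR-ABL cells and 0 of 8 Control cells held at least 10 reads.

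**Figure D4:**
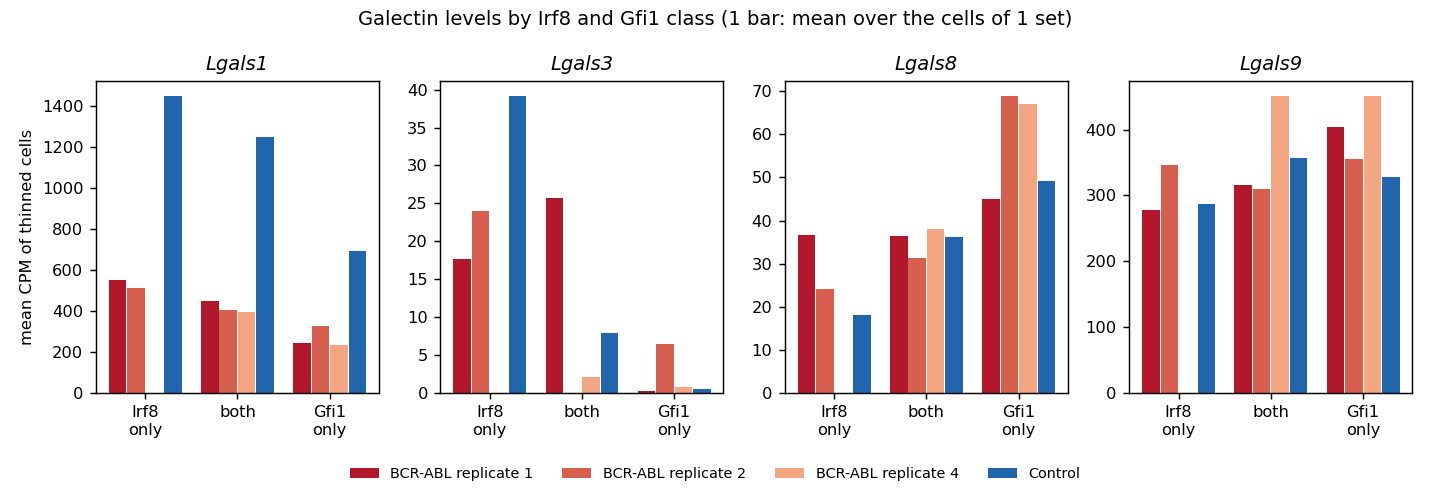
Mean CPM of each galectin over the thinned cells of each set with Irf8 only, both regulators or Gfi1 only. Lgals1 bars of the BCR-ABL sets lie below the Control bar in every class, Lgals3 is highest in Irf8-only cells of the Control set, and BCR-ABL replicate 4 has no Irf8-only bar because it held 1 such cell.

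Marker lists of other cell types moved with the groups beside these values. The 7 monocyte markers were each below the Control set in all 3 BCR-ABL sets, with a summed level of 4887, 5440 and 4594 CPM across BCR-ABL sets and 6542 CPM in the Control set. The 8 late neutrophil markers summed to 1009, 631 and 1006 CPM across BCR-ABL sets and 214 CPM in the Control set, with 4 of the 7 that were tested above the Control set in all 3 BCR-ABL sets. Macrophage markers summed to 30.5, 53.4 and 102 CPM across BCR-ABL sets and 29.1 CPM in the Control set, while 6 of the 7 tested lay below the Control set in all 3 BCR-ABL sets. Over all 20324 genes tested, 26.6% lay below the Control set in all 3 BCR-ABL sets and 24.2% lay above it. No marker of these 3 lists was at 0 reads. Their part in the galectin levels was not tested.

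The genes most like each member were those with the highest mean correlation over the 4 sets, among 8881 or 8882 genes with a read in at least 25% of thinned cells. For Lgals1 they included S100a10, a partner of annexin A2 (mean correlation 0.49), Emb, which encodes the membrane protein embigin (0.47), Tmsb10, an actin-binding thymosin (0.47), and Ms4a6c, a monocyte marker (0.46). The lowest were Cd63, a tetraspanin of granules and endosomes (-0.465), Pglyrp1, a neutrophil granule protein (-0.43), and Elane (-0.43). S100a10 was at 0.53, 0.48 and 0.45 across BCR-ABL sets and 0.50 in the Control set.

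For Lgals3 the nearest were Esyt1 (mean correlation 0.385), the cathepsin genes Ctss (0.38) and Ctsz (0.37), Ass1, an enzyme of arginine synthesis (0.36), and S100a10 (0.35), which is on the Lgals1 list too. The lowest were the ribosomal protein gene Rpl35 (-0.35), Kit (-0.34) and Elane (-0.33). Values for Lgals8 were smaller. The highest were Fut8, which adds core fucose to glycans (0.25), Slc26a6 (0.245), Pde4b (0.23), Hhex (0.22) and Kansl1l (0.22), and the lowest Arpp19 (-0.27). For Lgals9 the highest were Ddost, a subunit of the enzyme that attaches glycans to asparagine (0.29), the lysosomal protease gene Ctsd (0.28), Cct5 (0.27), Nucb1 (0.27) and Swap70 (0.26), and the lowest Ybx3 (-0.32).

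Genes for the glycoproteins that galectins bind pointed both ways, 10 of those tested higher and 9 lower in sign. Of 23 listed counter-receptors and ligands, 19 were tested and 0 passed edgeR's adjusted p, against 0% of all genes. At an unadjusted p under 0.05, 1 was higher and 2 were lower, 3 of 19 against 7.18% of all genes. The median log2 fold change was 0.01, against 0.05 over all genes tested. The one higher was Cd63, at 192, 200 and 318 CPM across BCR-ABL sets and 95.7 CPM in the Control set. Its log2 fold change was 1.32 (SE 0.35), which did not pass in edgeR but was called higher by DESeq2. The lower ones were Cd44, an adhesion receptor for hyaluronan, at 246, 267 and 248 CPM across BCR-ABL sets and 343 CPM in the Control set, and Lamp1, a lysosomal membrane glycoprotein, at 619, 698 and 494 CPM across BCR-ABL sets and 942 CPM in the Control set. Cd45 (Ptprc), a ligand of galectin-1, stood at 197, 185 and 172 CPM across BCR-ABL sets and 179 CPM in the Control set. Havcr2, which encodes the galectin-9 receptor Tim-3, stood at 0.0079 to 0.021 CPM across BCR-ABL sets and had 0 reads in the Control set.

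Of 23 listed genes of glycan synthesis, 22 were tested and 0 passed, with 14 higher and 8 lower in sign and a median log2 fold change of 0.17. At an unadjusted p under 0.05, 1 was higher and 2 were lower, 3 of 22 against 7.18% of all genes. Over all genes tested, 11019 of 20324 were higher in sign and the median was 0.05. C1galt1c1, the chaperone Cosmc needed to build galactose-capped O-glycans, stood at 66.9, 78.7 and 32.3 CPM across BCR-ABL sets and 160 CPM in the Control set (log2 fold change -1.41, SE 0.50, edgeR adjusted p = 0.678). St3gal1, which caps O-glycans with sialic acid, stood at 11.7, 12.9 and 13.2 CPM across BCR-ABL sets and 20.3 CPM in the Control set. B3gnt5, which starts lacto-series glycolipids, stood at 57.7, 49.9 and 56.1 CPM across BCR-ABL sets and 37.7 CPM in the Control set. Mgat5, whose branched N-glycans bind galectin-3, stood at 157, 166 and 170 CPM across BCR-ABL sets and 134 CPM in the Control set (log2 fold change 0.31, SE 0.14, edgeR adjusted p = 0.741).

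Of 11 listed genes of the response to damaged endosomes, 10 were tested and 0 passed, with 3 higher and 7 lower in sign and a median log2 fold change of -0.14, against 0.05 over all genes tested. At an unadjusted p under 0.05, 1 was higher and 0 were lower, 1 of 10 against 7.18% of all genes. Calcoco2, the galectin-8 receptor of autophagy in human cells, stood at 0, 0 and 0.0071 CPM across BCR-ABL sets and had 0 reads in the Control set. Sqstm1, the autophagy receptor p62, stood at 219, 232 and 198 CPM across BCR-ABL sets and 156 CPM in the Control set (log2 fold change 0.50, SE 0.17, edgeR adjusted p = 0.669). Tax1bp1, a related receptor, stood at 389, 371 and 442 CPM across BCR-ABL sets and 369 CPM in the Control set.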

How the data were processed

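RNA was counted in 384 wells, each sorted to hold 1 mouse GMP, in 3 BCR-ABL sets and 1 Control set. The deposited values are raw read counts per Ensembl gene and well, not normalised by the authors. Per the submitters' processing notes, GSNAP, HTSeq 0.5.3p3 and the mm10 build were used. The sources used here do not give the annotation release, strand setting or read filters. Symbols, exons and positions came from GENCODE vM21 (mm10), which matched 45143 of 46078 gene identifiers. The 92 spike-in and 5 summary rows held 55.1% of reads and entered neither totals nor tests.

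Wells with at least 50000 gene reads and 1000 genes were kept. Gene reads ran from 50434 to 4758711 per kept cell. No doublet caller was run on these single-cell sorts. Cells are not replicates, so counts were summed per set and fitted with edgeR 4.0.16 (quasi-likelihood, TMM, filterByExpr, Benjamini-Hochberg) in R 4.3.3 over 20324 genes. The 2 residual degrees of freedom come from the BCR-ABL sets, whose spread stands in for that of the single Control set. The labels do not say whether sets come from separate animals, so p-values measure only the spread between these sets, which may be technical. DESeq2 1.42.0 was an alternative. Other alternatives were size factors (RLE), plain library sizes, other filters, thinned sums, sums without the top cell, each BCR-ABL set left out, another share limit, unthinned or Pearson correlations, other class limits, class medians, and scaling to spike-ins.

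For shares, correlations and classes, cells were thinned at random to 674952 gene reads, the 10th percentile of kept cells, which left out 33 of 323. The edgeR fit was run on simulated counts with planted changes, and the ranking of similar genes on a noisy copy of Lgals9. Both were checks of the code and bear on no result here. The genes named are the members, the galectin genes in the tables, the nearest 5 and lowest 3 genes by mean correlation without predicted genes and pseudogenes and with 1 gene not reported here, and listed genes; those picked from the lists for the text were chosen after their values had been seen. The members and lists were chosen with earlier results of these data known. Reads carry no molecular identifiers and are not independent molecules.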

Additional observations from a re-analysis of the deposited data

How the results depend on the processing

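Of 130 values computed under alternatives, 109 stayed within the spread between sets (or, for a Control share, its interval) and 21 moved beyond it. The sign changed in 11, of which 10 were log2 differences within classes and 1 was the correlation of Lgals9 with Gfi1; none of these had passed a test. Leaving out each BCR-ABL set in turn gave log2 fold changes from -1.97 to -1.56 for Lgals1, -2.18 to -1.28 for Lgals3, 0.63 to 0.91 for Lgals8 and 0.05 to 0.25 for Lgals9. Scaling to spike-in reads, chosen after seeing the data, gave -1.70 for Lgals1, -2.35 for Lgals3, 0.90 for Lgals8 and 0.28 for Lgals9. DESeq2 called 557 genes and edgeR 0; the cause was not tested. A limit of 1 read gave shares of 13% of BCR-ABL cells and 33.3% of Control cells for Lgals3, 70.1% of BCR-ABL cells and 51.1% of Control cells for Lgals8, and 100% of Control cells for Lgals9. Unthinned cells gave 98.0% of BCR-ABL cells for Lgals1 and 96.3% for Lgals9. Within classes, limits of 5 and 30 reads gave Lgals9 log2 differences of -0.22 in Irf8-only and -0.15 in Gfi1-only cells. No Gfi1-only value could be had at 5 reads, where the Control set held 2 such cells. Medians in place of means gave log2 differences in Irf8-only cells of -1.35 for Lgals1, 0 for Lgals3, 2.47 for Lgals8 and 0.38 for Lgals9. In Gfi1-only cells they gave 2.58 for Lgals8 and 0.76 for Lgals9. Lgals8 and Lgals3 values within classes thus depend on cells at or near 0 reads, and small differences there are not detectable at this depth and number of cells. No paired analysis was possible because the Control set shares 1 replicate number at most with the BCR-ABL sets.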

Other observations

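Lgals4, which was not among the members, had a higher mean in Gfi1-only than in Irf8-only cells in each set with 5 or more of both. Gfi1-only means were 30.5, 60.2 and 27.8 CPM across BCR-ABL sets and 33.5 CPM in the 8 Control cells. Irf8-only means were 5.08 CPM (replicate 1), 8.40 CPM (replicate 2) and 11.2 CPM (Control). In replicate 4, 32 of 60 Gfi1-only cells held at least 10 reads, with a median of 15.6 CPM. In replicates 1 and 2 and the Control set, the means rested on a minority of cells. In that order of sets, Gfi1-only medians were 1.48, 0 and 4.4 CPM and the highest cells held 302, 381 and 159 CPM. Irf8-only medians were 0 CPM in each. At least 10 reads were found in 40%, 35.3% and 37.5% of Gfi1-only cells and 21.4%, 20% and 22% of Irf8-only cells. At a class limit of 5 reads, the 2 Gfi1-only Control cells held 0 CPM. The correlation between Lgals1 and Lgals4 over cells was negative in 4 of 4 sets, at -0.35, -0.27 and -0.15 across BCR-ABL sets and -0.17 in the Control set. Lgals9 and Lgals3bp, which encodes a glycoprotein bound by galectins, had a positive correlation in 4 of 4 sets. It was 0.17, 0.06 and 0.23 across BCR-ABL sets and 0.355 in the Control set, where Pearson's r was -0.06 in replicate 2. The share of all genes with 1 sign in all 4 sets was not computed for these pairs. Lgals1 and Lgals9, both read in nearly every cell, had correlations of 0.12, -0.16 and 0.06 across BCR-ABL sets and -0.12 in the Control set.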
